A study of Mus musculus with 28 samples.

Results

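Ciliary transport and BBSome genes are the 39 genes examined here, of 21779 protein-coding genes on the mouse chromosomes of build mm10. They were chosen by name and by role: 7 BBSome subunits (Bbs1, Bbs2, Bbs4, Bbs5, Bbs7, Bbs9 and Ttc8), 2 chaperonin-like genes of BBSome assembly (Bbs10 and Bbs12), the BBSome-recruiting GTPase Arl6, 12 genes of intraflagellar transport complex B, 5 of complex A, 4 kinesins, 3 transition zone genes, 2 genes of ciliary membrane traffic and 3 transcription factors of ciliated cells. The study asked how Ldb1 takes part in enhancement between chromosomes in olfactory neurons, and binding was mapped by chromatin immunoprecipitation with sequencing (ChIP-seq). Ldb1 (3 libraries), CTCF (2) and Rad21 (2) were mapped in control mature olfactory sensory neurons, marked by the OMP-IRES-GFP allele. Ldb1 was also mapped in 2 libraries of Lhx2 KO neurons and in 2 libraries of Olfr1507+ cells. The Lhx2 KO neurons carried OMP-IRES-Cre together with Lhx2fl/fl and the reporter Rosa-CAG-tdtom+/fl, so that Cre is made from the Omp locus and recombination is limited to neurons that have reached the Omp-expressing, mature stage. The reporter therefore differs between KO and control. The Olfr1507+ cells carried the allele M28-IRES-GFP. No label states whether replicate libraries are separate animals, so the spread between libraries may be technical.

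Olfactory sensory neurons carry long, immotile cilia in the mucus of the nose, where the odorant receptors and the transduction channels sit. Intraflagellar transport moves cargo along the axoneme, with complex B and kinesin-2 motors carrying it outward and complex A needed for the return; the BBSome is an adaptor that carries membrane proteins, and its loss in Bardet-Biedl syndrome impairs the sense of smell. RFX factors bind the X-box, a promoter element of many ciliary genes, and Foxj1 works beside them in cells with motile cilia. Lhx2 is a homeodomain factor of olfactory neurons, and Ldb1 is a cofactor without DNA-binding activity of its own that is brought to DNA by LIM-domain proteins such as Lhx2. CTCF is a DNA-binding protein at which cohesin, the ring complex that holds Rad21, is often halted.

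Peaks that overlapped by 1 base or more were joined, and the joined stretch is called a region where 2 or more libraries of the group contributed. A gene was counted when a region lay in its body or within 10 kb of it. A region at the gene start lay within 1 kb of the start listed by RefSeq. For Ift80, Ift81, Ift122, Tmem67 and Foxj1 no start was listed, and the nearer end of the gene was used. The strength of a peak is given as the percentile of the authors' score within its own list, where 100 is the highest. The mean percentile of a control Ldb1 region is over the 3 control lists, with an absent peak counted as 0. Shares of genes of like length are over the 200 protein-coding genes nearest in length to each gene.

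Promoter letters are shown first, for the ciliary genes whose promoter holds a part of the X-box. RefSeq promoters (GRCm38.p6, the assembly of mm10, from 250 bases before to 50 after the start) were listed for 34 of the 39 genes and for 17492 protein-coding genes in all. The letters GTTGCCNNG, searched on both strands, stood in 11 of the 34 ciliary promoters (32.4%), against 5.80% of all promoters. These were the promoters of Bbs1, Bbs7, Ift27, Ift57, Ift88, Wdr35, Traf3ip1, Kif17, Arl13b, Rfx2 and Rfx3. In 7 of them the letters lay before the start, and those stretches follow, 5′ to 3′ on the strand of the gene, with GTTGCCNNG in capitals and 50 bases on both sides where the stretch did not reach the start.
Arl13b: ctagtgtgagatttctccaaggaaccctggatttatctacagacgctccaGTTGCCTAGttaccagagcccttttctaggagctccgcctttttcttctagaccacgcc
Bbs7: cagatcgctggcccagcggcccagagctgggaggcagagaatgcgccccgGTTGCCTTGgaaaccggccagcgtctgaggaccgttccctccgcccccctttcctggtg
Ift27: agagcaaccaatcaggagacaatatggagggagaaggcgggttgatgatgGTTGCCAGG
Ift57: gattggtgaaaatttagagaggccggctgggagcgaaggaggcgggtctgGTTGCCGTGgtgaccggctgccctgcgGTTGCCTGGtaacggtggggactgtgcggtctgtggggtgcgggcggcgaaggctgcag
Kif17: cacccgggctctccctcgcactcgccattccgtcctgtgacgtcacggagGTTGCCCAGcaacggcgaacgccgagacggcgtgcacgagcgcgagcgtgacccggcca
Rfx2: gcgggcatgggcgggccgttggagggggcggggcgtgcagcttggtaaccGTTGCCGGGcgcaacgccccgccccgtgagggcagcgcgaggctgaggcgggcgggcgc
Traf3ip1: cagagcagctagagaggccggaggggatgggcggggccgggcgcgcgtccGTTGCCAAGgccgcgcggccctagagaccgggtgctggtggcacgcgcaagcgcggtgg
The stretches lie at chr16:62847163-62847271 (Arl13b, minus strand), chr3:36613452-36613560 (Bbs7, minus), chr15:78174082-78174140 (Ift27, minus), chr16:49699157-49699292 (Ift57, plus), chr4:138262128-138262236 (Kif17, plus), chr17:56831066-56831174 (Rfx2, minus) and chr1:91494539-91494647 (Traf3ip1, plus). Ift57, a complex B subunit, was the only one of the 7 with the letters in 2 places, beginning 87 and 60 bases before its start. The stretches of Arl13b, Ift57 and Rfx2 overlapped a control Ldb1 region, and those of Bbs7, Ift27, Kif17 and Traf3ip1 did not. This overlap was not worked out for other genes. Among ciliary genes with a control Ldb1 region at a listed start, 7 of 13 held GTTGCCNNG in the promoter, against 9.59% of all such protein-coding genes. The shorter letters GTTGCC, which the longer motif contains, stood in 15 of the 34 promoters (44.1%) and in 14.3% of all. The homeodomain core TAATTA stood in 0 of 34 (5.37% of all), CCCNNGGG, a core bound by EBF factors, in 3 of 34 (17.6% of all), and AGGGGGC, a part of the CTCF motif, in 4 of 34 (14.5% of all). A match says only that the letters are there, and binding of an RFX factor was not measured.

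In control neurons a Ldb1 region lay within 10 kb of 25 of the 39 ciliary genes (64.1%, 95% Wilson interval 48.4 to 77.3), against 39.6% of all protein-coding genes and 50.8% of genes of like length, at which 19.8 genes would be counted. A CTCF region lay near 28 of 39 (71.8%), against 56.5% of all genes and 65.1% of genes of like length. A Rad21 region lay near 13 of 39 (33.3%), against 31.6% of all genes and 37.2% at like length. The like-length share fell inside the Wilson interval for each of the 3 proteins. Wilson intervals cover counting error only, and genes are not replicates.

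The ciliary genes stood further from other genes at their starts. A control Ldb1 region lay at the start of 16 of 39 (41.0%, Wilson 27.1 to 56.6), against 12.5% of all protein-coding genes and 15.3% of genes of like length, both below the interval. CTCF regions lay at 7 starts (17.9%), against 12.2% of all genes, and Rad21 regions at 4 (10.3%), against 5.46%; both backgrounds lay inside the intervals of 8.98 to 32.7 and 4.06 to 23.6. Over the 34 genes with a listed start, a Ldb1 region lay at 13 (38.2%), against 12.6% of 17492 genes. The count of 16 became 8 without the second control library and 9 without the first; the share of all genes fell along with it, to 5.73% and 5.87%.

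Each control Ldb1 list on its own gave the same order. Ldb1 peaks lay at the start of 22, 22 and 9 ciliary genes in control libraries 1, 2 and 3, against 16.0%, 17.9% and 6.34% of all genes, which at like length would be 7.76, 8.51 and 3.11 genes. The third list was the shortest, with 16067 peaks against 24877 and 28879. The depth behind a list is unknown, so a short list cannot be told apart from fewer reads or less enrichment. Within 10 kb the counts were 28, 29 and 22 of 39, beside 43.5%, 47.4% and 29.1% of all genes, and 21.3, 23.1 and 15.0 genes at like length.

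**Figure D1:**
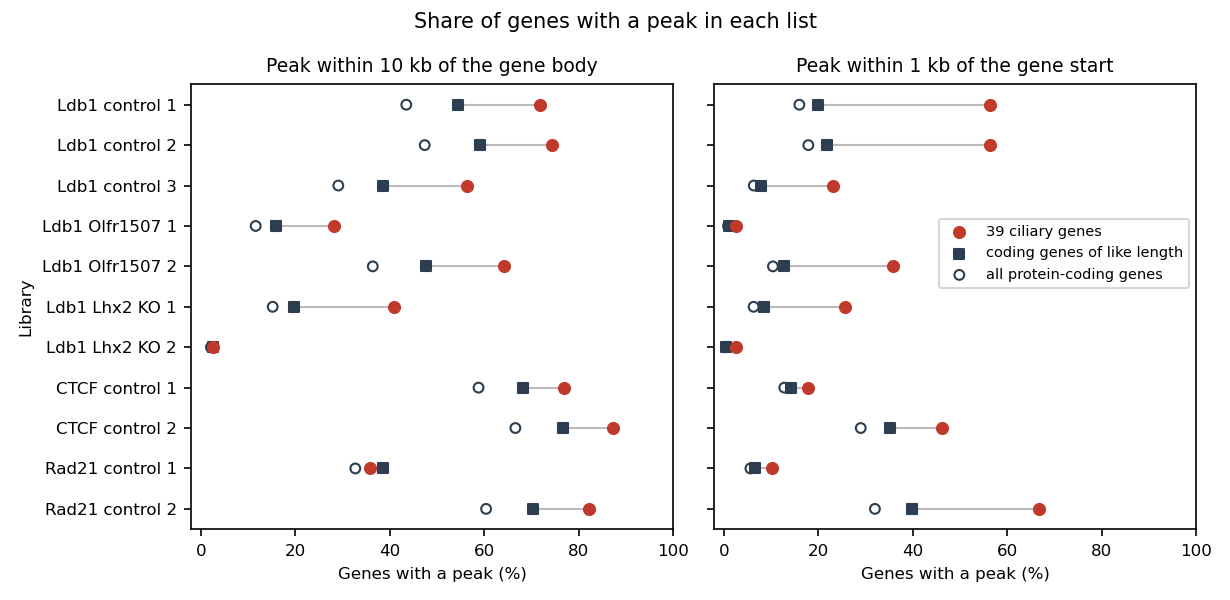
Share of genes (%, x axis) with a peak within 10 kb of the gene body (left) or within 1 kb of the gene start (right) in each of the 11 lists (y axis), for the 39 ciliary genes (red), genes of like length (squares) and all protein-coding genes (open circles). In the right panel the ciliary genes reach 56.4% in control Ldb1 lists 1 and 2 and 23.1% in list 3, to the right of both comparison sets.

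By role, a control Ldb1 region was found near 4 of the 7 BBSome subunits, neither of the 2 chaperonin-like genes, Arl6, 7 of 12 complex B genes, 4 of 5 complex A genes, 2 of 4 kinesins, 2 of 3 transition zone genes, both membrane traffic genes and all 3 transcription factors. Beside these counts stand 39.6% of all genes. The like-length share ran from 23.0% for Bbs10 to 83.5% for Bbs9 and was not worked out by role, so roles were not compared. The starts were marked in 3 BBSome subunits, 5 complex B genes, 2 complex A genes, 1 transition zone gene, both membrane traffic genes and all 3 transcription factors, and in none of the kinesins. Of all genes, 12.5% had a region at the start. Ift80, Ift81 and Foxj1 count here only by a gene end, since no start is listed for them. The 14 genes without a control Ldb1 region were Bbs1, Bbs4, Bbs5, Bbs10, Bbs12, Ift20, Ift22, Ift46, Ift74, Ift122, Ift172, Kif3a, Kif7 and Cep290. Of these, 6 had a peak in exactly 1 control Ldb1 list and 7 in none. Ift46, the remaining gene, had start peaks in control lists 1 and 2 (24.7 and 7.63) that did not overlap, so no region was formed. Kif7, a kinesin of Hedgehog signalling, had no peak in any of the 11 lists. Kif3a and Kif3b are partners in one heterotrimeric motor, but only Kif3b had a Ldb1 region, and the strongest lay 1.38 kb inside the gene. The single region of Kif17 lay in its flank, 0.0800 kb from the start of Ddost.

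**Figure D2:**
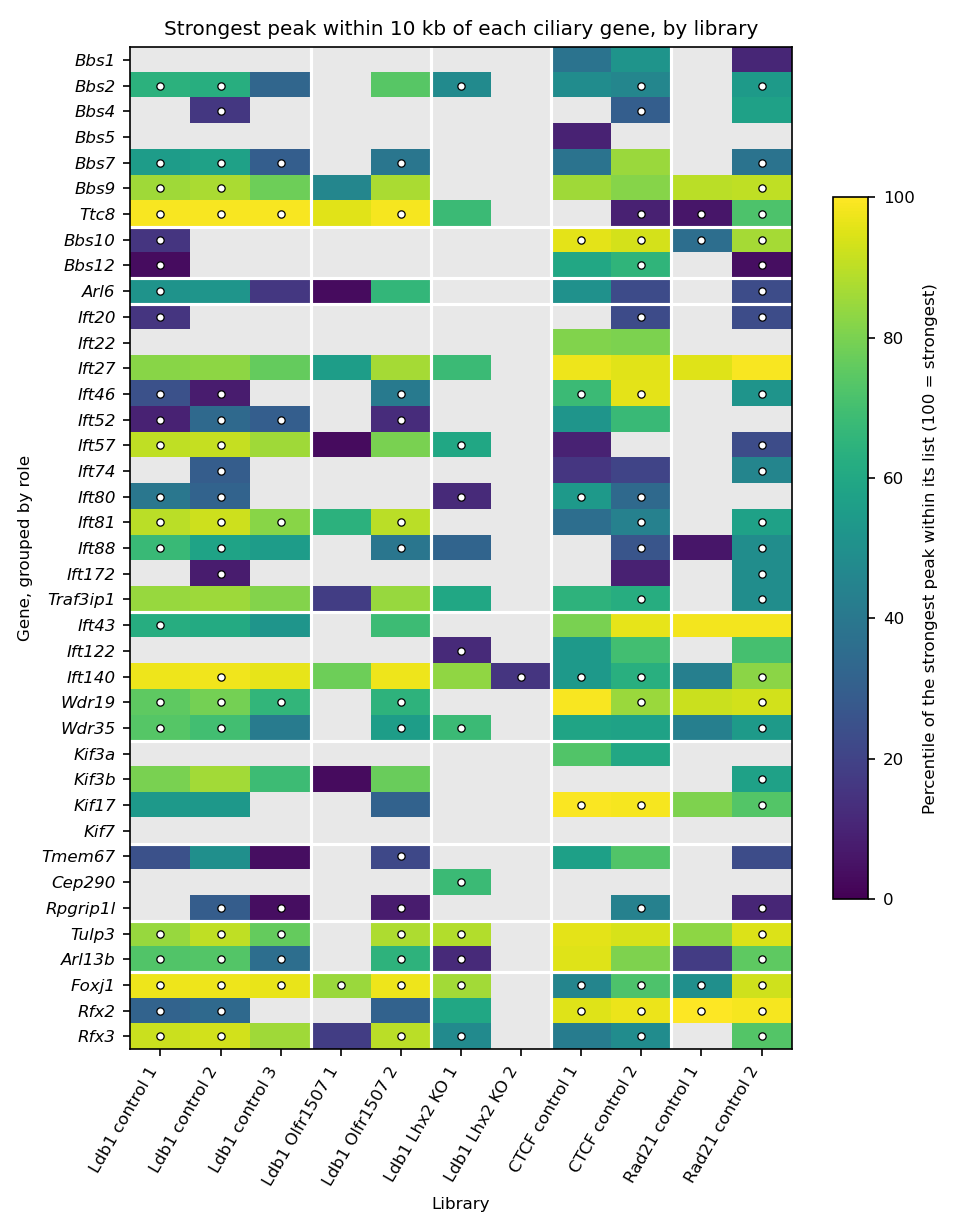
Percentile within its list (colour, 100 is the strongest) of the strongest peak within 10 kb of each of the 39 genes (rows, grouped by role) in each of the 11 libraries (columns), with grey for no peak; a white dot marks a gene with any peak within 1 kb of its start. Ttc8, Ift140 and Foxj1 are bright in all 3 control and in the second Olfr1507 column, and the second Lhx2 KO column is grey except for Ift140.

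Among BBSome genes, Ttc8 had the strongest Ldb1 region of all 39 genes. It lay 12.5 kb inside the gene (chr12:98933123-98933467), at percentiles 99.2, 99.2 and 98.9 in the 3 control lists. The mean of 99.1 placed it at rank 182 of 22789 control Ldb1 regions. The same place had a peak in both Olfr1507 lists (95.5 and 98.8) and in the first Lhx2 KO list (68.2), and none in the second. Ttc8 held 6 control Ldb1 regions in all, including one 0.0860 kb from its start (56.5, 57.2 and 16.1). Its promoter region was thus weaker in every control list than the region in its body.

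Bbs9, the longest of the genes at 413 kb, also had 6 regions, the strongest 351 kb from its start (chr9:22826454-22826856; 85.8, 87.4 and 77.9). Bbs7 had 1 region, 0.152 kb from the start (chr3:36612856-36613237; 55.3, 57.2 and 29.7). Bbs2 had a weak start region in only the first 2 control lists (24.7 and 20.1; chr8:94098214-94098551). Bbs2 and Bbs7 were therefore marked at the start at low to middling strength. Arl6, which brings the BBSome to membranes, had 1 region, 4.32 kb inside the gene.

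Among complex B genes the regions with the highest percentiles lay inside the genes, and those at starts were low to middling. Ift57 had a region 62.3 kb from the start (chr16:49761609-49761999; 90.3, 91.4 and 85.6) and a start region in the first 2 control lists (chr16:49698995-49699343; 9.74 and 23.5). Ift81 was alike, with a body region 8.03 kb from the nearer gene end (chr5:122606177-122606516; 89.7, 92.5 and 82.2) and a region 0.191 kb from it (chr5:122613977-122614355; 52.7, 57.2 and 21.3). Traf3ip1, which binds microtubules, had its only region 2.10 kb from the start (chr1:91496766-91497108; 84.4, 85.5 and 81.5). Ift27, a small GTPase of the complex, had its strongest region 9.20 kb from the start (chr15:78164541-78164880; 82.3, 83.2 and 76.4). None of these 4 strong body regions had a CTCF or Rad21 peak. Ift52 (9.74, 34.3 and 29.7; chr2:163016348-163016787) and Ift88 (58.6 and 52.0, absent from the third list; chr14:57424536-57424873) had regions 0.566 and 0.465 kb from their starts. The region of Ift80, in the first 2 lists (39.8 and 31.8; chr3:69004257-69004671), lay 0.00900 kb from its gene end.

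Of complex A, Ift140 had the second strongest region of the 39 genes, 38.4 kb inside the gene (chr17:25054493-25054830; 97.5, 97.9 and 96.4). It had a peak in both Olfr1507 lists (78.1 and 97.4) and in the first Lhx2 KO list (83.3). Wdr19 and Wdr35 were marked at their starts. Wdr19 stood at 58.6, 52.0 and 33.2 (chr5:65200044-65200386), and Wdr35 at 15.4 and 38.5 in the first 2 control lists (chr12:8973769-8974114). The Wdr35 start peak ranked higher in the first Lhx2 KO list (68.2) than in any control list, though ranks from lists of unequal length show no change in binding.

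The 2 genes of ciliary membrane traffic were both marked at the start in all 3 control lists. Tulp3, an adaptor that carries receptors into cilia with complex A, stood at 84.6, 90.4 and 76.4 (0.269 kb from the start, chr6:128355195-128355582). The small GTPase Arl13b stood at 72.8, 73.2 and 36.3 (0.0630 kb, chr16:62847103-62847519). Rpgrip1l, of the transition zone, had a weak region in control lists 2 and 3 (29.3 and 3.63; chr8:91312708-91313051), 0.171 kb from its start and 0.474 kb from that of Fto, so the region cannot be given to one of the 2 genes.

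The 3 transcription factors differed in strength. Foxj1 had a region 0.366 kb from a gene end (chr11:116331070-116331407) at 97.4, 97.6 and 96.7, and another in its body, 1.82 kb from the nearer end, at 92.7, 92.6 and 87.9. Its CTCF and Rad21 regions lay at the opposite end of the gene, and the strand of Foxj1 is not in the tables used. The Ldb1 region counted at its start may therefore lie at the other end of the gene. Rfx3 had 8 regions, the most of any of the 39 genes; the strongest lay 106 kb from the start (chr19:27904718-27905109; 91.9, 93.3 and 85.6) and the one at the start (chr19:28011001-28011359) stood at 37.4 and 49.7 and was absent from the third list. Rfx2 had a start region at only 15.4 and 12.1 (chr17:56830920-56831427). Beside it stood CTCF peaks at 30.3 and 93.2 and Rad21 peaks at 88.1 and 97.0. Rfx2 was the only one of the 39 genes with overlapping regions of all 3 proteins at its start.

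Near the 39 genes lay 65 control Ldb1 regions in all. They were of ordinary strength: the median of their mean percentiles was 43.2, against 45.3 for all 22789 regions, and 41 of 65 (63.1%) were in all 3 libraries, against 65.2% of all. A region in the top 10% lay near 4 of 39 genes (10.3%), against 6.22% of all genes and 8.55% at like length; these were Ttc8, Ift140, Foxj1 and Rfx3. By place, 16 of the 65 (24.6%, Wilson 15.8 to 36.3) lay at the gene start, against 14.4% of all pairs of region and protein-coding gene. Another 45 lay in the gene body, and 4 (6.15%) in the flanks, against 22.9% of all pairs. Start regions were weaker than the others as a set, with a median of 33.0 (range 9.17 to 97.2) against 48.1 (5.15 to 99.1) for the 49 elsewhere. The 97.2 belongs to Foxj1, at a gene end that may not be its start. With a listed start the highest was Tulp3, at 83.8. For 20 of the 65 another protein-coding gene lay within 10 kb, a share that was not worked out for all control Ldb1 regions.

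**Figure D3:**
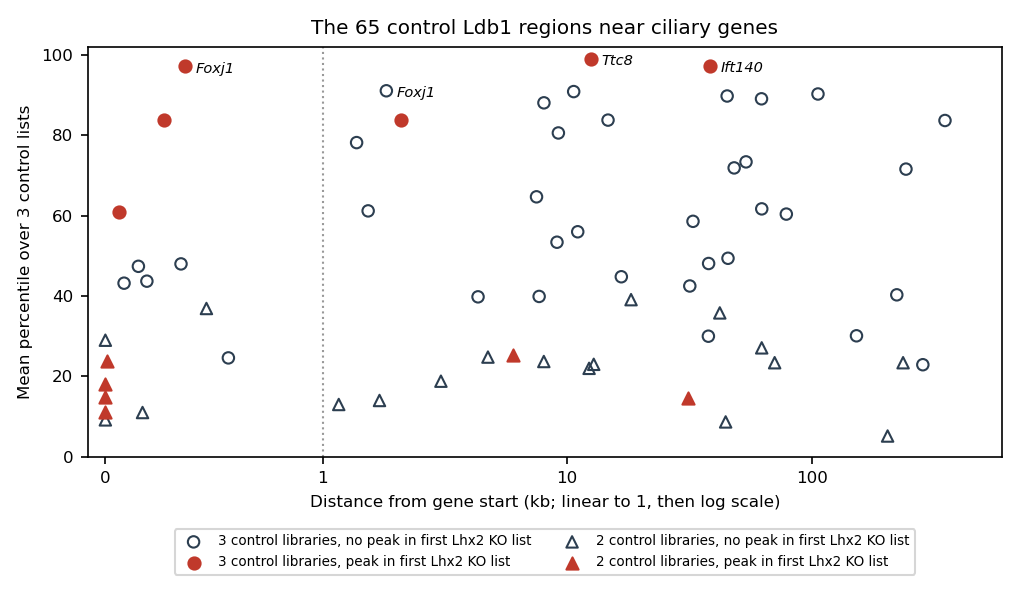
Mean percentile over the 3 control lists (y axis) of each of the 65 control Ldb1 regions near ciliary genes against its distance from the gene start, or nearer gene end, in kb (x axis, linear to 1 and then log; the dotted line is at 1 kb), with filled symbols for regions that also had a peak in the first Lhx2 KO list. Of the 16 regions left of the line 7 are filled, and of the 49 to its right 5 are.

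Ldb1 regions near the ciliary genes seldom met CTCF or Rad21 regions. Of the 65, 3 overlapped a CTCF region (4.62%), against 4.52% of all control Ldb1 regions, and 4 a Rad21 region (6.15%), against 3.82%; both counts were near their background. Rad21 and CTCF regions met each other instead: 14 of the 17 Rad21 regions near the genes overlapped a CTCF region (82.4%), against 92.5% of all Rad21 regions, and 14 of the 58 CTCF regions overlapped a Rad21 region (24.1%), against 36.8% of all CTCF regions. Several pairs with both proteins at high percentiles lay away from the starts. In Kif17, a kinesin-2 motor of sensory cilia, CTCF stood at 99.6 and 98.7 and Rad21 at 80.8 and 72.0 at a place 20.6 kb from the start. In Rfx2, 22.1 kb from the start, CTCF stood at 95.1 and 97.1 and Rad21 at 99.7 and 98.6. In the flank of Ift27, 4.31 kb from the start, CTCF stood at 97.4 and 95.5 and Rad21 at 95.1 and 99.1. Ift43, Wdr19 and Tulp3 had such pairs too, with mean percentiles of 88.2 or more for CTCF and 88.9 or more for Rad21. Bbs10 was the exception among the BBSome genes, with CTCF at 95.9 and 93.7 and Rad21 at 36.1 and 86.5 at its start and no Ldb1 region. Of the 39 genes, 10 had regions of all 3 proteins, 10 of Ldb1 and CTCF only, 3 of Ldb1 only (Ift57, Kif3b and Rpgrip1l) and 6 of none (Bbs4, Bbs5, Ift20, Ift172, Kif7 and Cep290). No share of all genes was worked out for these combinations, so the counts cannot tell whether the genes differed from other genes.

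The second Rad21 list stood apart from the first. It held 28151 peaks against 10487, with a peak at the start of 26 ciliary genes against 4. Of all genes, 32.0% and 5.63% had a start peak in these lists, which at like length would be 15.6 and 2.56 of 39. The CTCF lists differed in the same way, with 18 ciliary starts in the second against 7 in the first, beside 29.0% and 12.8% of all genes. Starts with a peak in the second list alone were not counted as regions.

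No ciliary gene had a Ldb1 region in both Lhx2 KO lists (0 of 39; Wilson upper bound 8.97%), against 1.53% of all protein-coding genes. At like length 0.690 of 39 genes would be counted, so a shortfall against other genes was not detectable. The KO lists were of very unequal length, 4290 and 542 peaks. In the first, 16 genes had a peak within 10 kb (41.0%), against 15.2% of all genes and 19.8% at like length; in the second, 1 did (2.56%), against 2.12%. Ift140 was the only gene with a peak in both, at different places. Its peak in the second list lay 0.0940 kb from the start, at percentile 15.3, outside any control Ldb1 region and 0.551 kb from the start of Cramp1l.

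With every list limited to its 542 top-scoring peaks, 1 of 39 genes had a peak in each KO list, and 1, 1 and 2 had one in the control lists. Of all genes, 1.98% and 2.12% had one in the KO lists and 1.67% to 1.70% in the control lists, or about 1 of 39 at like length, so these counts were near the background. The share was 2.56% ± 0 (SD, n = 2) in KO against 3.42% ± 1.48 (SD, n = 3) in control, a difference of -0.855 percentage points (exact permutation test, two-sided, p = 1.0; the 10 assignments allow no p below 0.10). The genes were not the same: Tulp3 and Ift140 in the KO lists, Ttc8 in all 3 control lists and Foxj1 in the third. At gene starts the difference was 1.71 percentage points (exact permutation test, p = 0.40, n = 2 and 3). It rested on 1 gene in each KO list (Tulp3 and Ift140) and on Foxj1, by a gene end, in the third control list. Of all genes, 0.294% and 0.514% had a start peak in the KO lists, and 0.0505% to 0.0643% in the control lists. More starts were thus listed in the KO lists for other genes as well. The difference within 10 kb was smaller than the SD of the control libraries, and the one at starts was larger than that SD of 1.48.

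The first Lhx2 KO list, taken alone, held more ciliary gene starts than the other Ldb1 lists at its length of 4290 peaks. It had 10 genes with a start peak, against 2, 2 and 2 in the control lists and 1 and 2 in the Olfr1507 lists. At this length the KO list was whole, while the others kept only their top-scoring peaks. Uncut, the control lists had 22, 22 and 9 genes with a start peak (16.0%, 17.9% and 6.34% of all genes). The uncut Olfr1507 lists had 1 and 14 (0.891% and 10.4% of all genes). The KO genes were Bbs2, Ift57, Ift80, Ift122, Wdr35, Cep290, Tulp3, Arl13b, Foxj1 and Rfx3. These 10 were 25.6% of the 39, against 6.31% of all genes and 8.44% at like length. Ift80, Ift122 and Foxj1 among them have no listed start, and Foxj1 also counts in every other list of this comparison. Over the 34 genes with a listed start, 7 had a start peak in the KO list (20.6%), against 6.51% of all genes. In the control lists at that length, 5.13% of the ciliary genes had a start peak, against 0.868%, 0.882% and 0.813% of all genes. More starts were thus listed in this KO library for other genes as well. Within 10 kb it had 16 genes against 9, 10 and 10. Of all genes, 15.2% had such a peak in this list, against 10.4%, 10.4% and 10.3% in the control lists. At like length that would be 7.71 genes against 5.69, 5.66 and 5.51, so part of the gap was shared by other genes. With 1 KO library against 3 an exact permutation test allows no p below 0.25, so neither difference could pass a test. The second KO list is too short for the same comparison, so what holds for 1 library cannot be told apart from what holds for the genotype.

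**Figure D4:**
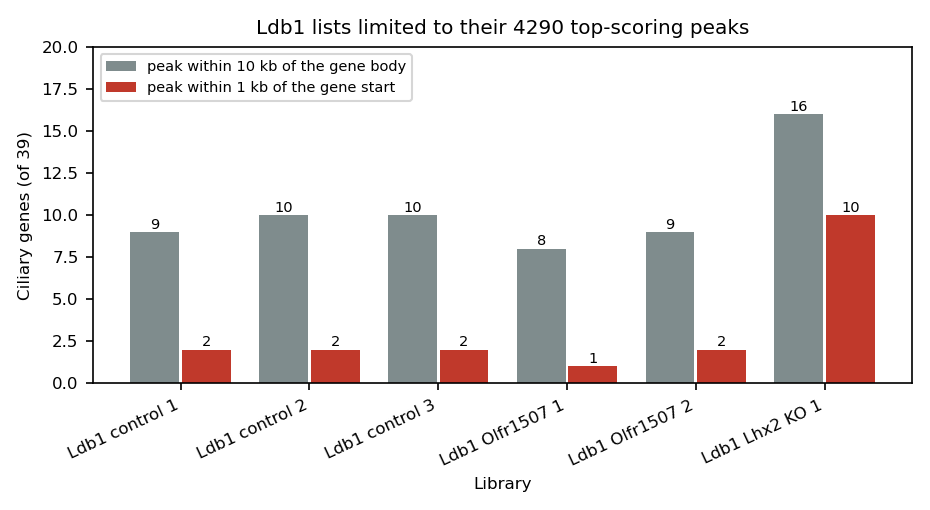
Number of the 39 ciliary genes (y axis, from 0) with a peak within 10 kb of the body (grey) or within 1 kb of the start (red) in 6 Ldb1 lists (x axis), each limited to its 4290 top-scoring peaks. The Lhx2 KO bars are 16 and 10, and the other lists have 8 to 10 and 1 or 2. There is 1 KO library, and only its list is whole at this length.

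Of the 10 genes with a KO start peak, 8 also had a control Ldb1 region at the start. Ift122, a complex A subunit, and Cep290, a transition zone gene, had no control Ldb1 peak within 10 kb. The KO peak of Ift122 (percentile 11.9) lay 0.0330 kb from an end of the gene and 0.0710 kb from the start of Mbd4. That of Cep290 (68.2) lay 0.190 kb from its start and on the start of Tmtc3. Neither peak can be given to one gene of its pair. Over places rather than genes, 12 of the 65 control Ldb1 regions near ciliary genes (18.5%, Wilson 10.9 to 29.6) had a peak in the first KO list, against 12.7% of all control regions. By position these were 7 of 16 at starts (43.8%) and 5 of 49 elsewhere (10.2%), against 21.4% and 12.6% of all pairs of control Ldb1 region and protein-coding gene. In the second KO list the count was 0 of 65, and 2.17% of all control regions had a peak there, so this count is near the background.

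In Olfr1507+ cells a Ldb1 region in both lists lay near 10 of the 39 genes (25.6%, Wilson 14.6 to 41.1), against 11.6% of all genes and 15.9% at like length, at which 6.22 would be counted. The lists held 5095 and 21250 peaks and had 11 and 25 of the genes, beside 11.6% and 36.4% of all genes, which at like length would be 6.24 and 18.6 of 39. Of the 65 control Ldb1 regions, 14 overlapped an Olfr1507 region (21.5%), close to the 21.6% of all control regions. With all 5 lists limited to 5095 peaks, each of the 2 Olfr1507 and 3 control lists had 11 genes, 28.2% ± 0 in both groups (exact permutation test, p = 1.0, n = 2 and 3). Of all genes, 11.6% to 11.9% had a peak in these lists. The control libraries are the same as in the Lhx2 KO comparison. Of the genes, 10 were in all 5 lists: Traf3ip1, Foxj1, Ttc8, Ift27, Ift57, Ift140, Rfx3, Kif3b, Ift81 and Bbs9. Arl6 was in the first Olfr1507 list only, and Tulp3 in the second Olfr1507 list and all 3 control lists.

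Other lists of ciliary genes and cell markers were set beside the 39. A further 50 ciliary genes of the same processes had a control Ldb1 region within 10 kb in 33 cases (66.0%; 46.1% at like length) and at the start in 22 (44.0%; 14.8% at like length). The strongest were Rfx4 (98.4), Pde6d (97.1), Ttll6 (97.1) and Kif3c (93.5), by mean percentile. GTTGCCNNG stood in 16 of 46 of their promoters. Their start share of 44.0% stands beside 41.0% for the 39. Genes of ciliary beating had a region near 15 of 18 (9.86 at like length) but at the start of 4 (22.2%; 15.9% at like length), and in Olfr1507+ cells near 2 of 18 (4.01 at like length).

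Peak lists check the cell type only through binding. All 12 marker genes of mature olfactory neurons had a control Ldb1 region (39.6% of all genes) and a region in both Olfr1507 lists (11.6% of all genes). Gng13 stood at a mean percentile of 99.5 and Omp at 99.0. The 18 genes of ciliary beating were also listed as markers of motile ciliated cells. Of these, 15 had a control region (83.3%, Wilson 60.8 to 94.2; 54.8% at like length) and 2 an Olfr1507 region (11.1%; 22.3% at like length). A control region was thus not limited to markers of the neurons. Of 6 sustentacular and 6 basal cell markers, 1 each had a control region (Muc2 and Krt5, at 21.4 and 8.66). At like length 2.24 and 2.46 would be counted, and the interval of 3.01 to 56.4% holds the share of all genes, so these 2 short lists do not differ from other genes beyond counting error. CTCF regions lay near all 12 neuron markers and Rad21 regions near 11 (62.9% and 34.6% at like length). Regions near these markers were thus not particular to Ldb1. Loss of Lhx2 in the KO neurons was not checked, since the RNA samples were not analysed here, and no RNA level of a ciliary gene is given.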

How the data were processed

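The 39 genes and the other gene lists were chosen with earlier results of these data known. Peak lists of 11 ChIP libraries were analysed, out of 28 samples; 3 input and 14 RNA samples were not analysed here, and the labels of 2 of the RNA samples disagree on their group. Formaldehyde fixation came before sorting, and chromatin was sonicated, per the labels' protocols. HOMER 4.7, Picard, SAMtools 1.3.1, Bowtie2 2.3.2, STAR 2.5.3a, cutadapt 1.9.1 and build mm10 are named, without roles, in the submitters' processing notes. The peak threshold is not given in the sources used here, nor are the control library and any filter. The authors deposited 1 list per library, with no pooling. Peak scores are as deposited by the authors, with unknown scaling between libraries, and served only for ranking inside a list. Read depth is unknown.

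Genes and starts came from RefSeq tables of GRCm38.p6; 108 protein-coding genes on scaffolds were left out. Shares of the 39 genes per library were compared over libraries, with lists cut to the length of the shortest, by a two-sided exact permutation test. The counting rules were tested on simulated data. Named with full values were the 10 genes with the strongest control Ldb1 region, those with one at the start, those in both Lhx2 KO lists, and Foxj1, Rfx2 and Rfx3; genes without a region were named only, and of other lists up to 4 by the same percentile. Genes named for CTCF, Rad21 or promoter letters were chosen after their values were seen. Alternatives were the window, the overlap, the top-scoring 50% of each list, the number of libraries, leaving out each library, length bins and the replicate block; those for start regions and for the letters before the start were added after seeing the data. Python 3.11.15, numpy 2.4.6, pandas 2.3.3, scipy 1.17.1, statsmodels 0.14.6 and matplotlib 3.10.9 were used.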

Additional observations from a re-analysis of the deposited data

How the results depend on the processing

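Of 85 recomputed values, 57 kept their sign or, without a test, stayed within the limits set for them, 27 moved beyond this and 1 changed sign. For tested differences only the sign was compared, with 0 kept apart, and no p-value entered. For the Lhx2 KO differences the 57 say nothing of size: full lists gave -45.7 percentage points within 10 kb (exact permutation p = 0.10), and leaving out the second KO library gave 20.5 at starts. The count of 25 genes with a control Ldb1 region within 10 kb stayed between 20 and 32. With the top-scoring 50% of each list the counts were 18 for CTCF, 8 for Rad21, 5 for Olfr1507, 15 for the other cilia genes and 8 for Ldb1 at starts. With a window of 50 kb they were 24 for Rad21 and 1 for both Lhx2 KO lists, and the Olfr1507 difference was -0.427 percentage points. With a peak in at least 1 library they were 32 for Rad21, 16 for Lhx2 KO, 25 for Olfr1507 and 27 for Ldb1 at starts, and with peaks in all 3 libraries 18 for the other cilia genes and 8 for Ldb1 at starts. Beside the 27, 8 and 8 starts stood 21.6%, 3.88% and 5.58% of all genes, for at least 1 library, the top 50% and all 3 libraries. For the other counts at these settings no share of all genes was worked out. Those counts therefore cannot tell whether the genes differed from other genes. With 1 library left out, the counts ranged from 14 to 32 for Rad21, 1 to 16 for Lhx2 KO, 11 to 25 for Olfr1507, 18 to 31 for the other cilia genes and 8 to 15 for Ldb1 at starts. With lists cut to one length and 1 library left out, the Lhx2 KO difference ranged from -1.28 to 16.2. It changed sign without the second KO library (16.2). The Olfr1507 difference ranged from 0 to 1.71. With the gene body alone or a window of 50 kb, the Lhx2 KO difference was -2.14. Full lists gave -21.4 for Olfr1507. GTTGCCNNG stood in 7 promoters (20.6%, against 4.72% of all) when only the 250 bases before the start were searched. The replicate block gave a difference of 0 for both comparisons; the labels do not say that numbers pair libraries, and same-numbered libraries deviated with correlations of -0.045 and 0.10 for Lhx2 KO and 0.028 and -0.12 for Olfr1507. For all of these the cause was not tested, beyond the shorter lists and fewer libraries of the settings themselves.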
